A study of Homo sapiens with 12 samples.

Results

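The genes described here are the matrix, protease and EMT genes of PC-9 cells, a human lung adenocarcinoma line that carries mutant EGFR. They are 46 listed genes in 9 classes, of which 44 were measured by a probe set annotated to that gene alone, among 19775 genes tested. The other 2 were not analysed here. Their levels were compared between cells carrying pre-miR-371 and cells carrying a GFP vector, each treated with erlotinib, an inhibitor of the EGFR kinase, or with the solvent DMSO. The 4 groups were pre-miR-371 cells with 2 μM erlotinib, pre-miR-371 cells with DMSO, GFP vector cells with 2 μM erlotinib and GFP vector cells with DMSO, all sampled after 24 h, with 3 Affymetrix Hgu133plus2 arrays per group and 12 in all. All groups were PC-9 cells that had received a lentiviral construct. For the controls the study's methods list a scramble hairpin in a vector with copGFP. The labels give a single line of each kind, so the effect of the hairpin and other differences between these particular lines cannot be told apart. The study's methods call its replicates biological in general, but the labels tie no array to a culture, so p-values measure the spread between these arrays.

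Epithelial cells sit on a basement membrane built from laminins, type IV collagen and linker proteins, and in epithelial-mesenchymal transition (EMT) they lose E-cadherin junctions, gain vimentin and lay down a different matrix. The transcription factors of the ZEB, SNAIL and TWIST families repress CDH1 and drive that programme, lysyl oxidases crosslink collagen and elastin fibres, and the matrix is cut by metalloproteinases and by plasmin, which the urokinase system generates. In PC-9 cells mutant EGFR drives growth through the MAPK and PI3K pathways, upstream of which erlotinib acts.

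The hairpin of the pre-miR-371 line is the precursor of 2 mature miRNAs, shown because the line is labelled by this hairpin. The bases in capitals are the seed, positions 2 to 8 from the 5′ end, which pairs with target mRNAs. Both sequences are from RefSeq on GRCh38.p14, plus strand, the 3p arm at chr19:53787716-53787738 and the 5p arm at chr19:53787680-53787699.
hsa-miR-371a-3p: aAGUGCCGccaucuuuugagugu
hsa-miR-371a-5p: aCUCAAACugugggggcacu
The seeds differ between the arms. Levels of the mature miRNAs were not analysed here, so the labels of the lines could not be checked against them. Among the 44 genes, LOXL4 appears among the miR-371-3p targets that the study lists as predicted.

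All values are log2 values per probe set as normalized by the authors. A gene with several probe sets was read from the one with the highest average signal, and a level of one gene is not set against that of another, since probe sets differ in brightness. A gene was called near background when its mean log2 value was under 6 in all 4 groups. This held for 13 of the 44 genes, namely ZEB1, ZEB2, SNAI1, TWIST1, CDH2, SPARC, COL4A2, LOX, MMP1, MMP2, MMP9, MMP10 and MMP13, and 26 were at or above 6 in every group. The remaining 5, TNC, COL4A1, COL5A1, COL13A1 and MMP7, crossed this level, and their fold changes rest on a group in which the signal was near background. In these bulk samples fewer cells expressing a gene and less RNA per cell cannot be told apart. The 6 lung adenocarcinoma epithelial markers EPCAM, KRT8, KRT18, KRT19, CDH1 and EGFR were above 6 in all groups. Of the other markers, 0 of 8 for fibroblasts and 0 of 4 for leukocytes reached 6 in any group, and PECAM1 alone of 4 for endothelium did. PECAM1 averaged 8.91 and 9.17 with erlotinib in the pre-miR-371 and GFP vector lines, against 7.88 and 7.90 with DMSO, while the endothelial markers CDH5, VWF and KDR stayed under 6 and VWF was also called higher with erlotinib. The log2 of the summed endothelial marker level was 9.10 to 9.15 in pre-miR-371 cells with erlotinib, 8.20 to 8.25 in pre-miR-371 cells with DMSO, 9.31 to 9.37 in GFP vector cells with erlotinib and 8.21 to 8.29 in GFP vector cells with DMSO, with PECAM1 the only one above 6. The summed fibroblast level lay between 6.83 and 7.10 in every array of the 4 groups, with DCN, LUM, COL1A2 and COL3A1 near background. The summed leukocyte level was 6.00 to 6.31 and 6.15 to 6.30 with erlotinib in the pre-miR-371 and GFP vector lines, against 5.54 to 5.81 and 5.56 to 5.87 with DMSO, with LYZ, the gene for lysozyme, the only member past the test. LYZ averaged 4.91 and 5.23 with erlotinib, against 3.65 and 3.85 with DMSO, in the same order of lines. Every sample is labelled as the PC-9 line, with no other cell type named. These marker values therefore describe RNA in PC-9 cultures, and no share of other cell types was estimated.

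The first question was how erlotinib changed these genes in each line. In the pre-miR-371 line 14 of 44 genes were higher and 11 lower with erlotinib than with DMSO, against 15 higher and 15 lower in GFP vector cells (limma, adjusted p under 0.05 by Benjamini-Hochberg over all genes). Over all genes tested, erlotinib raised 24.8% and lowered 22.2% in the pre-miR-371 line, and raised 26.5% and lowered 23.4% in the GFP vector line. The shares of the 44 genes were 31.8% and 25% in the pre-miR-371 line, and 34.1% and 34.1% in the GFP vector line. The median log2 fold change of the 44 genes was -0.057 in the pre-miR-371 line and -0.0027 in the GFP vector line, beside -0.032 and 0.0029 over all genes. With arrays centred on their medians 11 were higher and 13 lower in pre-miR-371 cells. The 44 genes did not move one way, and whether their shares differ from those over all genes was not tested. Erlotinib raised the same 11 genes in both lines and lowered another 11 in both, CDH1 was called in opposite directions, and 12 were called in neither line. Over all genes these shares were 22.4% higher in both, 19.2% lower in both, 0.0961% opposite and 44.9% in neither, beside 25%, 25%, 2.27% and 27.3% of the 44. The 2 lines are separate arrays. Where leaving out 1 array ended a call, the array is named below, and the range beside it is over the 12 fits that each left out 1 array.

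**Figure D1:**
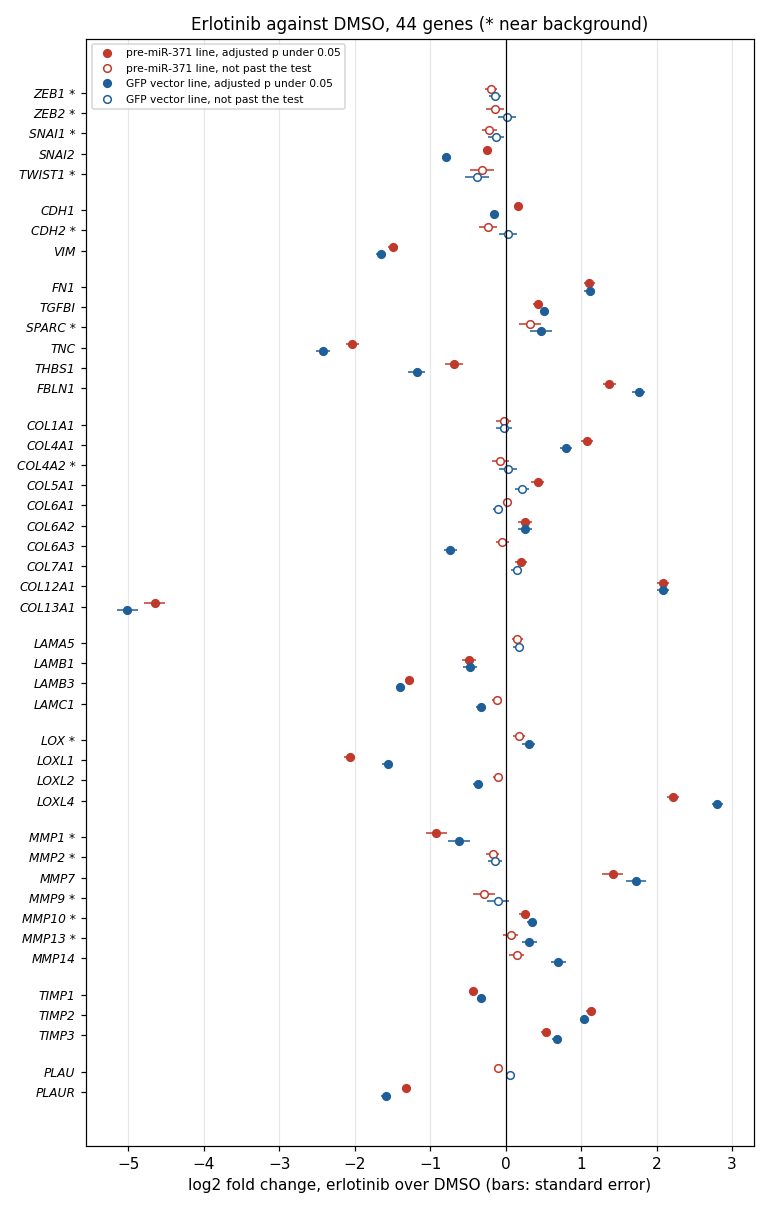
Log2 fold change of erlotinib over DMSO (x axis) for each of the 44 genes (y axis, grouped by class), in the pre-miR-371 line (red) and the GFP vector line (blue); bars are standard errors, filled points have an adjusted p under 0.05, and asterisks mark near-background genes. COL13A1 lies farthest to the left at -4.65 and -5.02, and LOXL4 farthest to the right at 2.22 and 2.81.

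Among the 5 EMT transcription factors, erlotinib lowered SNAI2 in both lines and no other member passed the test in the fit reported. ZEB1, ZEB2, SNAI1 and TWIST1 were near background, with group means of 3.00 to 5.47. TWIST1 was called lower with erlotinib in the GFP vector line under 5 alternative settings, with log2 fold changes of -0.52 to -0.38. SNAI1 was called lower under 4 settings in the pre-miR-371 line and 2 in the other line, and ZEB1 under 3 and 1. ZEB1, a repressor of CDH1, read 3.28, 3.25 and 3.42 in pre-miR-371 cells with erlotinib, 3.51, 3.44 and 3.58 with DMSO, 3.14, 3.38 and 3.27 in GFP vector cells with erlotinib and 3.44, 3.49 and 3.29 with DMSO, and all 12 values lay within 1 log2 unit of one another. SNAI2, the gene for the repressor SLUG, read 8.24, 8.22 and 8.23 in the erlotinib arrays of the pre-miR-371 line, against 8.47, 8.44 and 8.51 in its DMSO arrays. With erlotinib, the GFP vector line gave SNAI2 values of 8.13, 7.91 and 8.0, against 8.81, 8.80 and 8.80 with DMSO. The erlotinib arrays lay below the DMSO arrays in both lines, by a smaller step in pre-miR-371 cells. SNAI2 changed by -0.24 (SE 0.059, adjusted p = 0.00436) in the pre-miR-371 line and -0.79 (SE 0.059, adjusted p = 1.82e-07) in the GFP vector line on the log2 scale.

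Vimentin fell with erlotinib in both lines, while E-cadherin changed little. VIM, the gene for the intermediate filament of mesenchymal cells, also made by many carcinoma lines, read 7.44, 7.41 and 7.27 in the erlotinib arrays of the pre-miR-371 line, against 8.93, 8.89 and 8.80 in its DMSO arrays. GFP vector cells had VIM values of 7.40, 7.34 and 7.23 with erlotinib and 9.02, 8.97 and 8.95 with DMSO. No erlotinib array overlapped a DMSO array. The log2 fold changes of VIM were -1.50 (SE 0.066, adjusted p = 2.71e-09) in the pre-miR-371 line and -1.65 (SE 0.066, adjusted p = 8.68e-10) in the GFP vector line. CDH1, the gene for E-cadherin, the adhesion molecule of epithelial junctions, read 10.98, 11.04 and 11.01 in the erlotinib arrays of the pre-miR-371 line, against 10.86, 10.88 and 10.81 in its DMSO arrays. For CDH1 the GFP vector arrays gave 10.74, 10.69 and 10.69 with erlotinib, against 10.87, 10.83 and 10.90 with DMSO. The erlotinib arrays were above the DMSO arrays in the pre-miR-371 line and below them in the GFP vector line. These steps of CDH1 were 0.16 (SE 0.05, adjusted p = 0.02) in the pre-miR-371 line and -0.16 (SE 0.05, adjusted p = 0.0181) in the GFP vector line, each under 1.5-fold. The call of CDH1 in the pre-miR-371 line was lost without any 1 of pre-miR-371 erlotinib array 2 and pre-miR-371 DMSO array 3 (log2 fold change 0.14 to 0.17, adjusted p 0.0198 to 0.0757), and that in the GFP vector line without any 1 of GFP vector erlotinib arrays 2 and 3 and GFP vector DMSO array 3 (log2 fold change -0.18 to -0.14, adjusted p 0.0221 to 0.0569). With arrays centred on their medians the call in the pre-miR-371 line was also lost, and with the mean of its 2 probe sets the value was -0.0026. The second of these CDH1 probe sets averaged 3.94, near background. CDH2, the gene for N-cadherin, was near background, with group means between 3.99 and 4.23.

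Of 6 matrix glycoproteins, FN1, TGFBI and FBLN1 rose in both lines and TNC and THBS1 fell in both, beside 22.4% and 19.2% of all genes. FN1, the gene for fibronectin, which links integrins to collagen, read 11.04, 11.11 and 11.21 in the erlotinib arrays of the pre-miR-371 line, against 10.01, 10.03 and 10.00 in its DMSO arrays. FN1 in the GFP vector line read 11.07, 10.90 and 10.97 with erlotinib and 9.73, 9.97 and 9.90 with DMSO. Erlotinib arrays were the higher in both lines, with a like step. The log2 fold changes of FN1 were 1.11 (SE 0.074, adjusted p = 8.83e-08) in the pre-miR-371 line and 1.11 (SE 0.074, adjusted p = 6.12e-08) in the GFP vector line. Its other 3 bright probe sets gave steps between 0.99 and 1.18 over both lines. FBLN1, the gene for fibulin 1, a secreted partner of fibronectin and laminin, read 9.21, 9.18 and 9.10 in the erlotinib arrays of the pre-miR-371 line, against 7.76, 7.85 and 7.76 in its DMSO arrays. With erlotinib, the GFP vector line gave FBLN1 values of 9.36, 9.41 and 9.35, against 7.80, 7.61 and 7.40 with DMSO. The arrays with erlotinib did not overlap those with DMSO. FBLN1 changed by 1.37 (SE 0.086, adjusted p = 5.27e-08) in the pre-miR-371 line and 1.77 (SE 0.086, adjusted p = 4.34e-09) in the GFP vector line. TGFBI, an adhesion protein induced by TGF-beta, rose by 0.42 (SE 0.056, adjusted p = 3.64e-05) in the pre-miR-371 line and 0.51 (SE 0.056, adjusted p = 5.39e-06) in the GFP vector line on the log2 scale.

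The matrix glycoproteins that fell are matricellular proteins, which modulate contact between cells and matrix. TNC, the gene for tenascin C, read 5.63, 5.48 and 5.47 in the erlotinib arrays of the pre-miR-371 line, against 7.50, 7.56 and 7.61 in its DMSO arrays. GFP vector cells had TNC values of 4.65, 5.03 and 4.83 with erlotinib and 7.30, 7.29 and 7.19 with DMSO. Both erlotinib groups were under 6 and both DMSO groups above it. TNC changed by -2.03 (SE 0.088, adjusted p = 2.35e-09) in the pre-miR-371 line and -2.42 (SE 0.088, adjusted p = 3.98e-10) in the GFP vector line on the log2 scale. THBS1, the gene for thrombospondin 1, which binds collagen and activates latent TGF-beta, read 8.34, 8.37 and 8.47 in the erlotinib arrays of the pre-miR-371 line, against 8.93, 9.03 and 9.27 in its DMSO arrays. For THBS1 the GFP vector arrays gave 8.13, 7.68 and 8.04 with erlotinib, against 9.18, 9.11 and 9.09 with DMSO. Every erlotinib array lay below every DMSO array of its line. The log2 fold changes of THBS1 were -0.68 (SE 0.11, adjusted p = 0.000262) in the pre-miR-371 line and -1.18 (SE 0.11, adjusted p = 1.91e-06) in the GFP vector line. SPARC, a collagen-binding protein, was near background in all groups, with 0.33 (SE 0.15, adjusted p = 0.0878) in the pre-miR-371 line and 0.47 (SE 0.15, adjusted p = 0.0168) in the GFP vector line, where its call was lost without any 1 of GFP vector erlotinib array 1 and GFP vector DMSO array 1 (log2 fold change 0.34 to 0.62, adjusted p 0.00241 to 0.0776).

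The collagens moved in both directions, and the most extreme response of the 44 genes was in this class. Of 10 measured, 5 rose and 1 fell in the pre-miR-371 line, and 3 rose and 2 fell in the GFP vector line. Over all genes 24.8% rose and 22.2% fell in the pre-miR-371 line, and 26.5% and 23.4% in the GFP vector line. No class was tested against these shares. COL13A1, the gene for a collagen with a transmembrane domain found at cell adhesions, read 4.27, 4.58 and 3.91 in the erlotinib arrays of the pre-miR-371 line, against 9.0, 8.95 and 8.78 in its DMSO arrays. COL13A1 in the GFP vector line read 3.77, 3.78 and 4.08 with erlotinib and 8.92, 8.86 and 8.90 with DMSO. The erlotinib arrays lay more than 4 log2 units below the DMSO arrays and near background. COL13A1 changed by -4.65 (SE 0.14, adjusted p = 1.28e-10) in the pre-miR-371 line and -5.02 (SE 0.14, adjusted p = 4.65e-11) in the GFP vector line on the log2 scale. Its 2 other probe sets, whose suffix marks possible cross-hybridisation, changed by smaller steps of -0.72 and -1.26 in the pre-miR-371 line and -0.58 and -1.29 in the GFP vector line, so the direction was shared and the size was not.

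COL12A1, the gene for a collagen that associates with the surface of type I fibrils, read 9.84, 9.84 and 9.79 in the erlotinib arrays of the pre-miR-371 line, against 7.68, 7.86 and 7.68 in its DMSO arrays. With erlotinib, the GFP vector line gave COL12A1 values of 9.74, 9.67 and 9.61, against 7.74, 7.58 and 7.45 with DMSO. This is the reverse pattern, with every erlotinib array over 1.5 log2 units above every DMSO array. COL12A1 rose by 2.08 (SE 0.078, adjusted p = 7.04e-10) in the pre-miR-371 line and 2.09 (SE 0.078, adjusted p = 5.11e-10) in the GFP vector line on the log2 scale, and a second probe set with a mean of 6.40 rose by 1.38 in the pre-miR-371 line and by 1.62 in the GFP vector line. COL4A1, a chain of basement membrane collagen, read 6.98, 6.86 and 7.08 in the erlotinib arrays of the pre-miR-371 line, against 5.91, 5.85 and 5.93 in its DMSO arrays. GFP vector cells had COL4A1 values of 6.72, 6.63 and 6.68 with erlotinib and 6.02, 5.75 and 5.85 with DMSO. The erlotinib arrays were the higher in each line, and the DMSO arrays were close to 6. The steps of COL4A1 were 1.08 (SE 0.077, adjusted p = 1.67e-07) in the pre-miR-371 line and 0.80 (SE 0.077, adjusted p = 1.87e-06) in the GFP vector line. COL4A2, which encodes its partner chain and lies head to head with it in the genome, had group means of 3.86 to 4.06 on its brightest probe set and was called in neither line.

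The 3 chains of type VI collagen, a beaded filament around cells, behaved differently from one another. COL6A1 passed the test in neither line, with 0.017 (SE 0.056, adjusted p = 0.847) in the pre-miR-371 line and -0.11 (SE 0.056, adjusted p = 0.148) in the GFP vector line. COL6A2 changed by 0.26 (SE 0.095, adjusted p = 0.0432) in the pre-miR-371 line and 0.25 (SE 0.095, adjusted p = 0.0436) in the GFP vector line. Its call in the pre-miR-371 line was lost without any 1 of pre-miR-371 erlotinib arrays 1 and 2, pre-miR-371 DMSO arrays 2 and 3, GFP vector erlotinib array 2 and GFP vector DMSO array 2 (log2 fold change 0.20 to 0.32, adjusted p 0.0193 to 0.159), and in the GFP vector line without any 1 of 7 of the 12 arrays, all but pre-miR-371 erlotinib arrays 1 and 3, pre-miR-371 DMSO array 1, GFP vector erlotinib array 3 and GFP vector DMSO array 1 (log2 fold change 0.19 to 0.35, adjusted p 0.00658 to 0.155). A second COL6A2 probe set, with a mean of 6.38, changed by 0.12 and 0.15 and passed the test in neither line. COL6A3, the longest chain, read 8.09, 8.02 and 7.84 in the erlotinib arrays of the pre-miR-371 line, against 8.05, 8.07 and 7.96 in its DMSO arrays. For COL6A3 the GFP vector arrays gave 6.97, 7.11 and 7.07 with erlotinib, against 7.93, 7.78 and 7.65 with DMSO. The erlotinib arrays overlapped the DMSO arrays in the pre-miR-371 line and lay below them in the GFP vector line. Erlotinib changed COL6A3 by -0.045 (SE 0.085, adjusted p = 0.714) in the pre-miR-371 line and -0.74 (SE 0.085, adjusted p = 9.48e-06) in the GFP vector line.

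Among the remaining collagens, COL5A1, a regulator of fibril diameter, changed by 0.42 (SE 0.089, adjusted p = 0.00154) in the pre-miR-371 line and 0.21 (SE 0.089, adjusted p = 0.0641) in the GFP vector line. Only its mean in pre-miR-371 cells with erlotinib, 6.33, was above 6. COL7A1, the anchoring fibril collagen, changed by 0.20 (SE 0.075, adjusted p = 0.0445) in the pre-miR-371 line and 0.15 (SE 0.075, adjusted p = 0.131) in the GFP vector line, and its call was lost without any 1 of 10 of the 12 arrays, all but pre-miR-371 erlotinib array 2 and pre-miR-371 DMSO array 1 (log2 fold change 0.12 to 0.26, adjusted p 0.0157 to 0.189). A second COL7A1 probe set, with a mean of 6.79, rose in both lines, by 0.65 (adjusted p = 0.000125 over all probe sets) in pre-miR-371 cells and by 0.27 (adjusted p = 0.0377) in GFP vector cells. COL1A1, a chain of fibrillar type I collagen, passed the test in neither line, with -0.026 (SE 0.10, adjusted p = 0.866) in the pre-miR-371 line and -0.023 (SE 0.10, adjusted p = 0.88) in the GFP vector line. That value came from its brightest probe set, which has the suffix for possible cross-hybridisation. Another probe set of COL1A1 had a highest group mean of 6.43 and rose by 1.46 in the pre-miR-371 line and by 1.18 in the GFP vector line, so the COL1A1 response depended on the probe set. This set was also higher in pre-miR-371 than in GFP vector cells, by 0.75 with erlotinib and by 0.46 with DMSO.

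The laminins are heterotrimers that organise the basement membrane. By the fit reported 2 of 4 were lower in pre-miR-371 cells and 3 of 4 in GFP vector cells, and 0 were higher, though LAMA5 was called higher under some alternatives. Over all genes 22.2% were lower and 24.8% higher in pre-miR-371 cells, and 23.4% and 26.5% in GFP vector cells. LAMB3, the beta chain of the laminin that anchors hemidesmosomes, read 8.74, 8.63 and 8.58 in the erlotinib arrays of the pre-miR-371 line, against 9.98, 9.94 and 9.86 in its DMSO arrays. LAMB3 in the GFP vector line read 8.86, 8.89 and 8.79 with erlotinib and 10.27, 10.25 and 10.22 with DMSO. No erlotinib array overlapped a DMSO array of its line. LAMB3 fell with log2 fold changes of -1.28 (SE 0.059, adjusted p = 3.99e-09) in the pre-miR-371 line and -1.40 (SE 0.059, adjusted p = 1.42e-09) in the GFP vector line. LAMB1, a beta chain of widely expressed laminins, changed by -0.49 (SE 0.093, adjusted p = 0.000748) in the pre-miR-371 line and -0.47 (SE 0.093, adjusted p = 0.000966) in the GFP vector line. LAMC1, the gamma chain of most laminins, changed by -0.12 (SE 0.068, adjusted p = 0.184) in the pre-miR-371 line and -0.33 (SE 0.068, adjusted p = 0.00132) in the GFP vector line. LAMA5, an alpha chain of adult basement membranes, passed the test in neither line, with 0.15 (SE 0.071, adjusted p = 0.103) in the pre-miR-371 line and 0.17 (SE 0.071, adjusted p = 0.0661) in the GFP vector line. LAMA5 was called higher under 5 alternative settings in the pre-miR-371 line, at 0.15 to 0.21, and under 6 in the other line, at 0.17 to 0.25.

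The lysyl oxidases, copper enzymes that crosslink collagen and elastin, split within the family. LOXL4, a lysyl oxidase and the predicted miR-371-3p target, read 9.38, 9.39 and 9.26 in the erlotinib arrays of the pre-miR-371 line, against 7.11, 7.19 and 7.08 in its DMSO arrays. With erlotinib, the GFP vector line gave LOXL4 values of 10.00, 10.13 and 10.12, against 7.44, 7.21 and 7.18 with DMSO. Every erlotinib array was over 2 log2 units above every DMSO array of its line. The log2 fold changes of LOXL4 were 2.22 (SE 0.077, adjusted p = 3.8e-10) in the pre-miR-371 line and 2.81 (SE 0.077, adjusted p = 3.84e-11) in the GFP vector line, the most positive of the 44 genes. LOXL1, an oxidase needed for elastic fibres, read 8.94, 8.86 and 8.72 in the erlotinib arrays of the pre-miR-371 line, against 10.90, 10.94 and 10.89 in its DMSO arrays. GFP vector cells had LOXL1 values of 9.47, 9.36 and 9.36 with erlotinib and 11.09, 10.95 and 10.85 with DMSO. The erlotinib arrays were over 1 log2 unit below the DMSO arrays in each line. LOXL1 changed by -2.07 (SE 0.075, adjusted p = 5.39e-10) in the pre-miR-371 line and -1.57 (SE 0.075, adjusted p = 3.78e-09) in the GFP vector line. LOXL2, which acts on basement membrane collagen, changed by -0.11 (SE 0.057, adjusted p = 0.155) in the pre-miR-371 line and -0.37 (SE 0.057, adjusted p = 0.000117) in the GFP vector line, and with the mean of all its probe sets, 3 of which averaged under 5, the call in the GFP vector line was lost (log2 fold change -0.090). LOX, the founding member, was near background on its brightest probe set, with 0.17 (SE 0.083, adjusted p = 0.108) in the pre-miR-371 line and 0.30 (SE 0.083, adjusted p = 0.00797) in the GFP vector line. A second LOX probe set had a highest group mean of 6.44 and changed by 0.21 in the pre-miR-371 line (adjusted p = 0.201 over all probe sets) and by 1.22 in the GFP vector line (adjusted p = 2.1e-06).

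Of 7 matrix metalloproteinases, MMP7 and MMP14 were above background in at least 1 group. MMP7, matrilysin, a small epithelial protease, read 6.35, 6.22 and 6.24 in the erlotinib arrays of the pre-miR-371 line, against 5.10, 4.65 and 4.82 in its DMSO arrays. For MMP7 the GFP vector arrays gave 6.58, 6.18 and 6.49 with erlotinib, against 4.59, 4.92 and 4.55 with DMSO. The erlotinib arrays were above 6 and the DMSO arrays below it, with no overlap. MMP7 rose by 1.42 (SE 0.14, adjusted p = 2.22e-06) in the pre-miR-371 line and 1.73 (SE 0.14, adjusted p = 2.97e-07) in the GFP vector line on the log2 scale. MMP14, a membrane-anchored collagenase that activates MMP2, read 6.94, 6.62 and 6.88 in the erlotinib arrays of the pre-miR-371 line, against 6.74, 6.50 and 6.76 in its DMSO arrays. MMP14 in the GFP vector line read 7.23, 7.31 and 7.10 with erlotinib and 6.42, 6.56 and 6.56 with DMSO. The groups overlapped in the pre-miR-371 line and did not in the GFP vector line. MMP14 changed by 0.15 (SE 0.099, adjusted p = 0.261) in the pre-miR-371 line and 0.70 (SE 0.099, adjusted p = 6.1e-05) in the GFP vector line. Another MMP14 probe set, with a highest group mean of 6.19, changed by 0.26 in each line and passed the test in neither. The interstitial collagenase MMP1 was lower with erlotinib in both lines but near background, with -0.92 (SE 0.14, adjusted p = 0.000144) in the pre-miR-371 line and -0.62 (SE 0.14, adjusted p = 0.00271) in the GFP vector line. The stromelysin MMP10 was higher in both and the collagenase MMP13 in the GFP vector line, all at group means under 4. For MMP10 the call in the pre-miR-371 line was lost without pre-miR-371 DMSO array 1 (log2 fold change 0.21 to 0.28, adjusted p 0.00535 to 0.0529), and for MMP13 the call in the GFP vector line was lost without any 1 of GFP vector erlotinib arrays 2 and 3 and GFP vector DMSO array 1 (log2 fold change 0.23 to 0.39, adjusted p 0.00794 to 0.079). The gelatinases MMP2 and MMP9 passed the test in neither line and were near background.

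The inhibitors of these enzymes, TIMP1, TIMP2 and TIMP3, were all called in both lines, 2 upward and 1 downward. Over all genes 22.4% were higher in both lines and 19.2% lower in both. TIMP2, an inhibitor that also takes part in MMP2 activation, read 10.45, 10.27 and 10.29 in the erlotinib arrays of the pre-miR-371 line, against 9.26, 9.16 and 9.20 in its DMSO arrays. With erlotinib, the GFP vector line gave TIMP2 values of 10.30, 10.28 and 10.28, against 9.34, 9.22 and 9.17 with DMSO. All erlotinib arrays were above all DMSO arrays. The rise of TIMP2 was 1.13 (SE 0.065, adjusted p = 2.52e-08) in the pre-miR-371 line and 1.04 (SE 0.065, adjusted p = 3.63e-08) in the GFP vector line. TIMP3, the matrix-bound inhibitor, read 10.52, 10.55 and 10.58 in the erlotinib arrays of the pre-miR-371 line, against 9.98, 10.04 and 10.01 in its DMSO arrays. GFP vector cells had TIMP3 values of 10.60, 10.67 and 10.62 with erlotinib and 10.07, 9.95 and 9.82 with DMSO. The groups did not overlap in either line. TIMP3 rose by 0.54 (SE 0.065, adjusted p = 1.63e-05) in the pre-miR-371 line and 0.68 (SE 0.065, adjusted p = 1.62e-06) in the GFP vector line. Its other 3 probe sets gave smaller TIMP3 steps, of 0.15 to 0.34 in pre-miR-371 cells, where 1 of 3 passed the test, and 0.31 to 0.49 in GFP vector cells, where all 3 did. TIMP1, a secreted inhibitor, changed by -0.44 (SE 0.054, adjusted p = 2.2e-05) in the pre-miR-371 line and -0.32 (SE 0.054, adjusted p = 0.000258) in the GFP vector line.

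In the urokinase system the receptor fell in both lines, while the response of the protease depended on the probe set. PLAUR, the receptor that holds urokinase at the cell surface, read 8.06, 8.0 and 7.92 in the erlotinib arrays of the pre-miR-371 line, against 9.34, 9.32 and 9.28 in its DMSO arrays. For PLAUR the GFP vector arrays gave 7.61, 7.72 and 7.74 with erlotinib, against 9.31, 9.30 and 9.24 with DMSO. Every erlotinib array was over 1 log2 unit below every DMSO array. PLAUR changed by -1.32 (SE 0.058, adjusted p = 2.61e-09) in the pre-miR-371 line and -1.59 (SE 0.058, adjusted p = 4.01e-10) in the GFP vector line, and its other 2 probe sets changed by -1.46 and -1.03 in the pre-miR-371 line and -1.59 and -1.28 in the GFP vector line. PLAU, the gene for urokinase, changed by -0.10 (SE 0.052, adjusted p = 0.146) in the pre-miR-371 line and 0.057 (SE 0.052, adjusted p = 0.42) in the GFP vector line on its brightest probe set. Its other PLAU probe set, with a mean of 8.91, was lower in both lines, at -0.27 (adjusted p = 0.0481 over all probe sets) in pre-miR-371 cells and -0.27 (adjusted p = 0.047) in GFP vector cells.

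**Figure D2:**
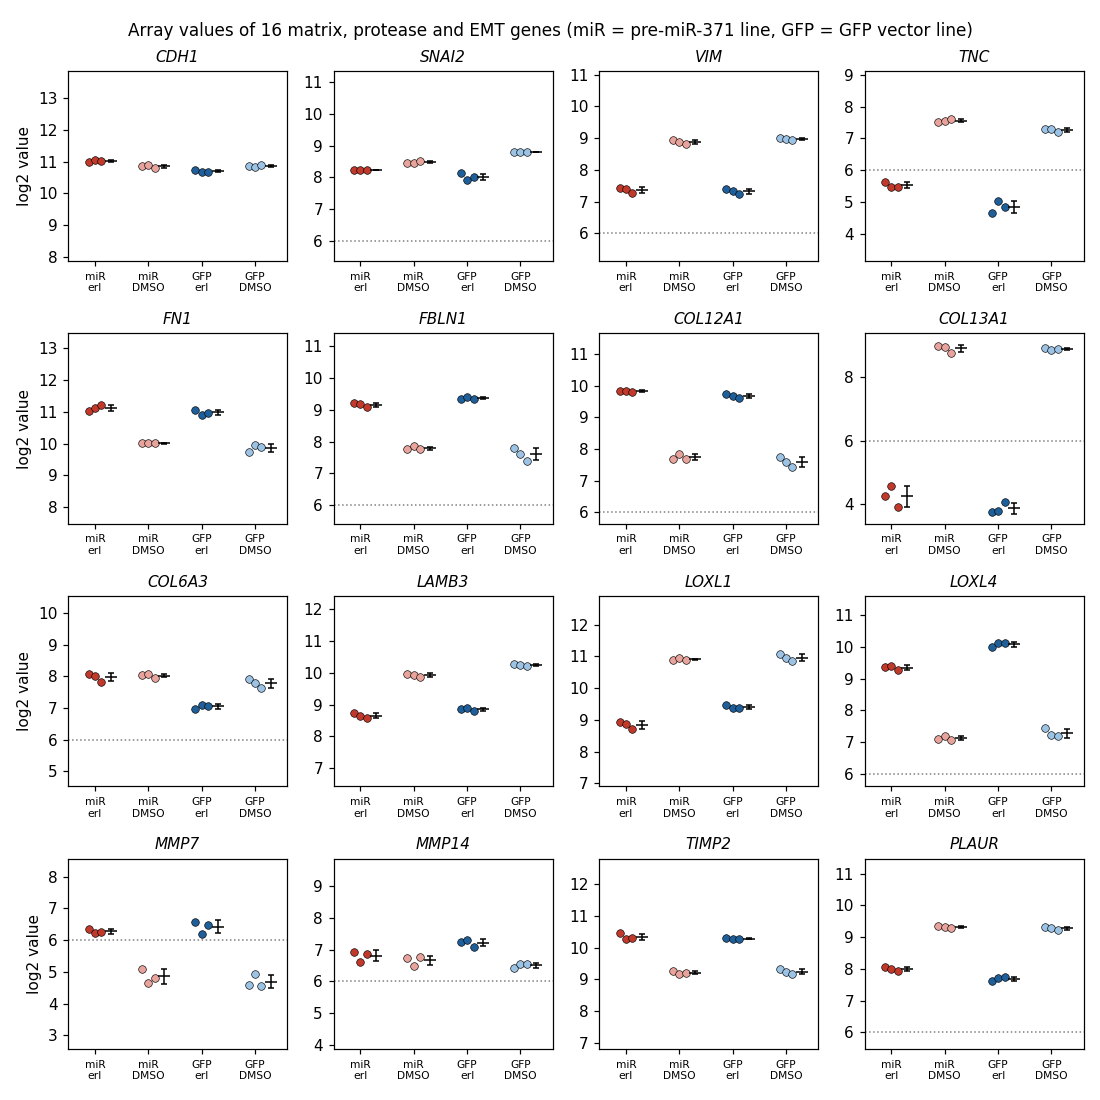
Log2 value (y axis, 6 log2 units in every panel) of 16 of the genes in each array; columns are pre-miR-371 cells with erlotinib, pre-miR-371 cells with DMSO, GFP vector cells with erlotinib and GFP vector cells with DMSO, with 3 points each, the mean and SD beside them and a dotted line at 6. COL13A1 drops in both lines, LOXL4 rises in both, and COL6A3 is lower with erlotinib than with DMSO in the GFP vector line, where its arrays do not overlap.

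Promoters were searched for the AP-1 motif TGANTCA, which reads the same on both strands, because the AP-1 factors are classical effectors of the MAPK pathway below EGFR and bind promoters of several matrix and protease genes. In RefSeq promoters on GRCh38.p14, from 250 bases before to 50 after each start, 7.71% of 35116 windows held it. Of the 44 genes, 32 had at least 1 window, and 5 of their 45 windows held the motif, 1 each for LAMB3, PLAUR, MMP7, MMP10 and CDH2. The stretches below show it in capitals with 20 bases on each side for the 4 of these genes that erlotinib changed in both lines. They lie on the minus strand, for LAMB3 at chr1:209651415-209651461, for PLAUR at chr19:43670329-43670375, for MMP7 at chr11:102530788-102530834 and for MMP10 at chr11:102780669-102780715.
LAMB3: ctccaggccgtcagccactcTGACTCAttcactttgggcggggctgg
PLAUR: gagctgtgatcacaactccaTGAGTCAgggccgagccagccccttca
MMP7: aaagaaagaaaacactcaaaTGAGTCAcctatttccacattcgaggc
MMP10: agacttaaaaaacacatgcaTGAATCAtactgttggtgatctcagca
The motif begins 67 bases before the start in LAMB3, MMP7 and MMP10 and 186 bases before it in PLAUR. With erlotinib LAMB3 and PLAUR were lower, at -1.28 and -1.32 log2 in the pre-miR-371 line, and MMP7 and MMP10 were higher, at 1.42 and 0.25. MMP10 was near background, and its call in that line was lost without pre-miR-371 DMSO array 1. The motif bound by SNAIL and ZEB repressors, CACCTG on either strand, was in 20.59% of all windows and in 8 of the 45, those of LAMA5, LAMB3, LOX, LOXL4, PLAU and ZEB1 and overlapped the AP-1 motif in 0 windows of the 44 genes. A match is a description of the sequence and no site was tested here.

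The second question was whether the lines differed at the same treatment, pre-miR-371 over GFP vector. With erlotinib 8 of the 44 genes were higher and 8 lower in pre-miR-371 cells, where over all genes 6.5% were higher and 9.46% lower. With DMSO 0 were higher and 5 lower, where over all genes 1.62% were higher and 3.64% lower (limma). At an unadjusted p under 0.05, 4 genes were higher with DMSO, namely TNC, COL5A1, COL6A3 and MMP9, and 8 were lower. Quantile normalization repeated over the arrays gave 4 higher and 3 lower with DMSO. With a fold limit of 1.5 the counts were 2 higher and 1 lower with erlotinib and 0 and 0 with DMSO. Shares over all genes were not taken at the unadjusted p, the repeated normalization or the fold limit. These counts therefore cannot be set against all genes. The arrays compared here also enter the responses above, so these comparisons share samples with them.

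**Figure D3:**
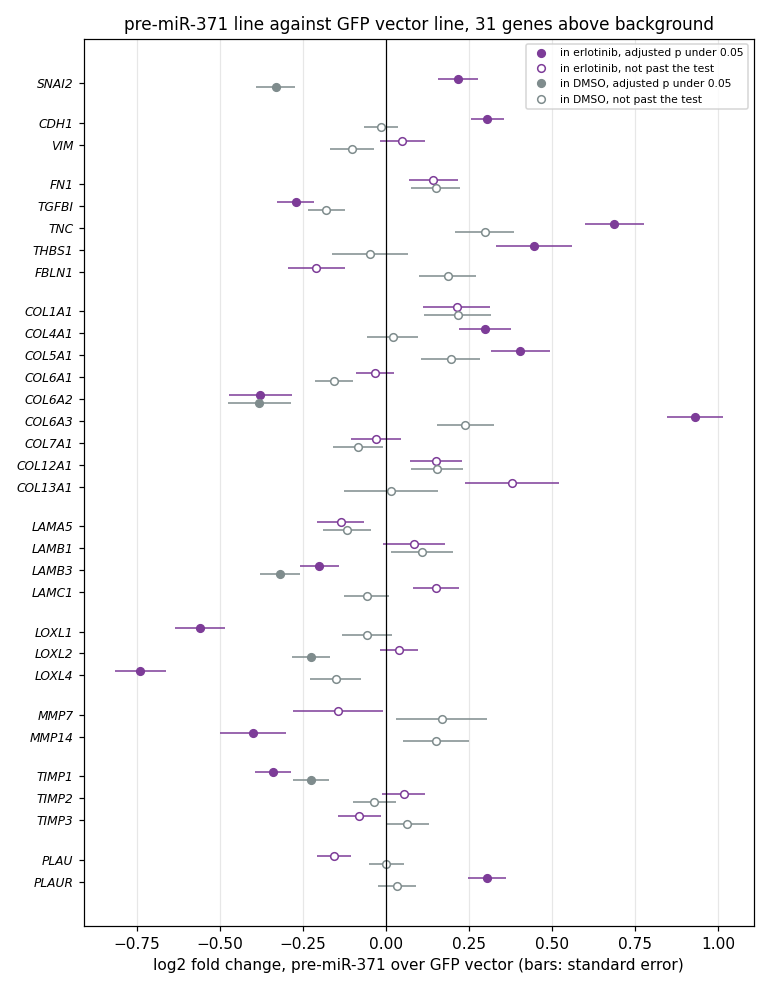
Log2 fold change of the pre-miR-371 line over the GFP vector line (x axis) for the 31 genes above background in at least 1 group (y axis, by class), with erlotinib (purple) and with DMSO (grey); bars are standard errors and filled points have an adjusted p under 0.05. COL6A3 at 0.93 and LOXL4 at -0.74 are the farthest points, both with erlotinib.

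With erlotinib, the genes higher in the pre-miR-371 line were SNAI2, CDH1, TNC, THBS1, COL4A1, COL5A1, COL6A3 and PLAUR. COL6A3 averaged 7.98 in pre-miR-371 cells and 7.05 in GFP vector cells, a difference of 0.93 (SE 0.085, adjusted p = 0.000106), and no pre-miR-371 array overlapped a GFP vector array. TNC averaged 5.53 in pre-miR-371 cells and 4.84 in GFP vector cells, a difference of 0.69 (SE 0.088, adjusted p = 0.000577) between 2 groups under 6. CDH1 was 0.30 (SE 0.05, adjusted p = 0.00244) and PLAUR 0.30 (SE 0.058, adjusted p = 0.0055) on the log2 scale. COL5A1 was 0.40 (SE 0.089, adjusted p = 0.0108), with a mean of 5.93, under 6, in GFP vector cells. The differences of THBS1, 0.44 (SE 0.11, adjusted p = 0.0218), and COL4A1, 0.30 (SE 0.077, adjusted p = 0.0233), were not past the test without some single arrays. At its other 3 probe sets with a group mean above 6 the THBS1 difference was -0.069, -0.026 and -0.16, none past the test. With DMSO, where the brightest THBS1 set differed by -0.049, these 3 sets differed by -0.36, -0.38 and -0.62, with adjusted p = 0.0425, 0.0593 and 0.0123 over all probe sets. Its call was lost without any 1 of pre-miR-371 erlotinib arrays 2 and 3 and GFP vector erlotinib array 2 (log2 fold change 0.31 to 0.54, adjusted p 0.0176 to 0.0837). The call of COL4A1 was lost without any 1 of pre-miR-371 erlotinib arrays 1 and 3 and GFP vector erlotinib arrays 2 and 3 (log2 fold change 0.24 to 0.35, adjusted p 0.0114 to 0.0951). The difference of SNAI2 was 0.22 (SE 0.059, adjusted p = 0.0288) and was lost without any 1 of pre-miR-371 erlotinib arrays 1, 2 and 3 and GFP vector erlotinib arrays 2 and 3 (log2 fold change 0.17 to 0.27, adjusted p 0.0142 to 0.106).

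The genes lower in the pre-miR-371 line with erlotinib were TGFBI, COL6A2, LAMB3, LOXL1, LOXL4, MMP13, MMP14 and TIMP1. LOXL4 averaged 9.34 in pre-miR-371 cells and 10.08 in GFP vector cells, a difference of -0.74 (SE 0.077, adjusted p = 0.000191). LOXL1 averaged 8.84 in pre-miR-371 cells and 9.40 in GFP vector cells, a difference of -0.56 (SE 0.075, adjusted p = 0.00073). In both genes all pre-miR-371 arrays were below all GFP vector arrays. TIMP1 differed by -0.34 (SE 0.054, adjusted p = 0.00201) and TGFBI by -0.27 (SE 0.056, adjusted p = 0.0075). The near-background MMP13 differed by -0.51 (SE 0.099, adjusted p = 0.00599). The 3 other differences were lost with single arrays left out. That of MMP14, -0.40 (SE 0.099, adjusted p = 0.019), was lost without any 1 of pre-miR-371 erlotinib array 2 and GFP vector erlotinib arrays 1 and 2 (log2 fold change -0.46 to -0.30, adjusted p 0.016 to 0.0702). At the other MMP14 probe set above 6 it was 0.16, and with the mean of all probe sets it was -0.013 (adjusted p = 0.944). That of COL6A2, -0.38 (SE 0.095, adjusted p = 0.0198), was lost without any 1 of pre-miR-371 erlotinib arrays 2 and 3 and GFP vector erlotinib arrays 1 and 2 (log2 fold change -0.44 to -0.31, adjusted p 0.00907 to 0.084). That of LAMB3, -0.20 (SE 0.059, adjusted p = 0.0406), was lost without any 1 of 8 of the 12 arrays, all but pre-miR-371 erlotinib array 1, pre-miR-371 DMSO array 3 and GFP vector DMSO arrays 1 and 3 (log2 fold change -0.25 to -0.16, adjusted p 0.0266 to 0.141). Other probe sets with a group mean above 6, named after their values were seen, were also lower for LOX, FBLN1 and COL6A1. They gave -0.89, -0.35 and -0.28, with adjusted p = 0.00108, 0.0113 and 0.037 over all probe sets. The brightest sets of these genes did not pass the test, and the second COL1A1 set went the other way, at 0.75.

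With DMSO, the 5 lower genes were SNAI2, COL6A2, LAMB3, LOXL2 and TIMP1. SNAI2 averaged 8.47 in pre-miR-371 cells and 8.80 in GFP vector cells, a difference of -0.33 (SE 0.059, adjusted p = 0.0108), and was the only one of the 5 past the test with every array left out in turn. LAMB3 differed by -0.32 (SE 0.059, adjusted p = 0.0136), lost without pre-miR-371 DMSO array 3 (log2 fold change -0.34 to -0.29, adjusted p 0.0138 to 0.0639). TIMP1 differed by -0.23 (SE 0.054, adjusted p = 0.0364), lost without any 1 of 9 of the 12 arrays, all but pre-miR-371 erlotinib arrays 1 and 3 and GFP vector erlotinib array 1 (log2 fold change -0.24 to -0.21, adjusted p 0.026 to 0.131). COL6A2 differed by -0.38 (SE 0.095, adjusted p = 0.0414), lost without any 1 of 7 of the 12 arrays, all but pre-miR-371 erlotinib arrays 1 and 3, GFP vector erlotinib arrays 1 and 3 and GFP vector DMSO array 3 (log2 fold change -0.44 to -0.29, adjusted p 0.0317 to 0.135). LOXL2 differed by -0.23 (SE 0.057, adjusted p = 0.0432), lost without any 1 of 11 of the 12 arrays, all but pre-miR-371 erlotinib array 3 (log2 fold change -0.26 to -0.19, adjusted p 0.0495 to 0.145). The predicted target LOXL4 did not pass the test with DMSO, at -0.15 (SE 0.077, adjusted p = 0.265).

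The third question was whether the response to erlotinib itself differed between the lines, tested as the response in the pre-miR-371 line minus that in the GFP vector line. Of the 44 genes 3 had a higher difference and 2 a lower one, where over all genes 1.44% were higher and 0.561% lower. With arrays centred on their medians 3 were higher and 1 lower. SNAI2 fell less in the pre-miR-371 line, by a difference of 0.55 (SE 0.083, adjusted p = 0.00811). COL6A3 fell in the GFP vector line and was not past the test in the pre-miR-371 line, and the difference was 0.69 (SE 0.12, adjusted p = 0.014). LOXL4 rose less in the pre-miR-371 line, with a difference of -0.59 (SE 0.11, adjusted p = 0.0192). LOXL1 fell more there, with a difference of -0.50 (SE 0.11, adjusted p = 0.0356). CDH1, which was higher with erlotinib in one line and lower in the other, differed by 0.32 (SE 0.071, adjusted p = 0.0433). The differences of SNAI2 and COL6A3 passed the test with every array left out in turn. That of LOXL4 was lost without any 1 of pre-miR-371 DMSO array 2, GFP vector erlotinib arrays 2 and 3 and GFP vector DMSO array 2 (log2 fold change -0.67 to -0.54, adjusted p 0.0102 to 0.0578), that of LOXL1 without any 1 of 10 of the 12 arrays, all but pre-miR-371 erlotinib array 1 and GFP vector DMSO array 1 (log2 fold change -0.57 to -0.44, adjusted p 0.0225 to 0.0879), and that of CDH1 without any 1 of the 12 arrays (log2 fold change 0.30 to 0.34, adjusted p 0.0618 to 0.112). MMP14 at -0.55 (SE 0.14, adjusted p = 0.0754) and THBS1 at 0.49 (SE 0.16, adjusted p = 0.164) did not pass, though MMP14 was called under 4 alternative settings and THBS1 under 1. FBLN1, at -0.40 (SE 0.12, adjusted p = 0.141), was called under 6. PLAUR, at 0.27 (SE 0.082, adjusted p = 0.134), and LOXL2, at 0.27 (SE 0.081, adjusted p = 0.134), were also called under some alternative settings. LOX was called with the mean of all its probe sets, at -0.46 (adjusted p = 0.0485). The second LOX probe set, named after its values were seen, had a LOX difference of -1.01 (adjusted p = 0.0204 over all probe sets), while the brightest LOX probe set was at -0.13 (SE 0.12, adjusted p = 0.667).

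Other genes of the matrix and of EMT were read from further lists, with the values of the pre-miR-371 line given before those of the GFP vector line. For comparison, erlotinib raised 24.8% and lowered 22.2% of all genes in the pre-miR-371 line, and 26.5% and 23.4% in the GFP vector line. Whether any list differs from these shares was not tested. Of 29 further matrix proteins, 12 rose and 1 fell with erlotinib in the pre-miR-371 line and 13 rose and 1 fell in the GFP vector line, with 17 near background. Their log2 fold changes in the pre-miR-371 and GFP vector lines included EFEMP1 at 2.16 and 2.14 (fibulin 3), COL16A1 at 1.61 and 1.46 (a minor fibril-associated collagen), LAMB2 at 1.34 and 1.55 (a laminin beta chain) and COL4A5 at 1.09 and 0.94 (a basement membrane collagen chain). Their median log2 fold change was 0.13 and 0.21, beside -0.032 and 0.0029 over all genes. Of 14 genes that modify or process collagen, 5 rose and 4 fell in the pre-miR-371 line and 6 rose and 6 fell in the GFP vector line. The procollagen C-proteinase BMP1 rose by 1.21 and 1.28, and the lysyl oxidase family gene LOXL3 changed by -1.39 and -1.70. Of 28 other proteases and inhibitors, 11 rose and 3 fell in the pre-miR-371 line and 12 rose and 3 fell in the GFP vector line. They included MMP12 at 2.10 and 3.05 (macrophage elastase, whose means stayed under 6), HPSE at 1.53 and 1.38 (heparanase, which cuts heparan sulphate), ADAM10 at 0.99 and 1.05 (a sheddase) and ADAM19 at -2.50 and -2.58 (a related metalloproteinase).

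Of 14 other epithelial genes, 10 rose and 2 fell with erlotinib in the pre-miR-371 line and 9 rose and 3 fell in the GFP vector line, with median log2 fold changes of 0.49 and 0.49, against -0.032 and 0.0029 over all genes. Beside the counts in this paragraph, the all-gene shares were 24.8% higher and 22.2% lower, then 26.5% and 23.4%. ELF3, an epithelial transcription factor, averaged 10.57 and 10.66 with erlotinib in the pre-miR-371 and GFP vector lines, against 7.29 and 7.40 with DMSO. JUP, the junction protein plakoglobin, rose by 1.24 and 1.26, the splicing factor ESRP1 by 0.63 and 0.82, and the transcription factor GRHL2 by 0.87 and 0.64. Those that fell, named after their values were seen, were the adhesion molecule EPCAM at -0.23 and -0.19, the transcription factor OVOL1 at -0.57 and -0.53 and, in GFP vector cells, the keratin KRT18 at -0.14. Of 15 other mesenchymal genes, 3 rose and 2 fell in the pre-miR-371 line and 2 rose and 3 fell in the GFP vector line, with 9 near background. The receptor tyrosine kinase AXL changed by -1.32 and -1.46, while the ligand WNT5A changed by 0.98 and 0.81. FBLN5, named after its values were seen, was called higher in the pre-miR-371 line and lower in the GFP vector line. Its difference of responses was called higher, and with erlotinib it was higher in pre-miR-371 than in GFP vector cells. Of 15 genes of the TGF-beta pathway, 7 rose and 5 fell in the pre-miR-371 line and 4 rose and 4 fell in the GFP vector line. The receptor TGFBR1 changed by -0.64 and -1.10, and the ligand TGFB1 by -0.72 and -0.78. Named after their values were seen, SKIL, LTBP1, LTBP3 and LTBP4 were higher in both lines. TGFB2, TGFB3 and TGFBR3 were called higher in the pre-miR-371 line alone. SMAD3 and LTBP2 were lower in both lines, and TGFBR2 in the pre-miR-371 line alone. Between the lines, the ligand TGFB2 was lower in pre-miR-371 cells, with differences of -0.42 (SE 0.065, adjusted p = 0.00171) with erlotinib and -0.71 (SE 0.065, adjusted p = 0.000257) with DMSO. SERPINB5, the gene for maspin, was also lower there, with differences of -0.61 (SE 0.056, adjusted p = 0.000113) with erlotinib and -0.47 (SE 0.056, adjusted p = 0.00137) with DMSO.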

How the data were processed

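RNA of PC-9 lines was measured on 12 Affymetrix Hgu133plus2 arrays, 3 per group, grouped by their labels. The authors deposited log2 values per probe set, made by quantile normalization according to the methods and with RMA and affy according to the submitters' processing notes (versions not given in the sources used here), so background correction and scaling were already in the values. No count depth exists for arrays, and precision is set by how few arrays there are. Of 54675 probe sets, 41091 with 1 gene symbol were used for 19775 genes, those annotated to several symbols or to none being left out. Symbols were updated through Entrez identifiers (19735 genes).

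The test was limma 3.58.1, run in R 4.3.3 with lmFit and eBayes on group means of all 12 arrays, with Benjamini-Hochberg adjustment over all genes and an adjusted p under 0.05 as the call. No set test was run. The 46 genes, the classes and the other lists were chosen with earlier results of these data known. Array values are given for genes called with a fold over 1.5 in at least 1 comparison and a mean of at least 6 in at least 1 group, and for CDH1, VIM, ZEB1 and LOXL4. Up to 4 genes of each other list, with the smallest p in a comparison, are named. Further genes of the epithelial, mesenchymal and TGF-beta lists are marked as named after their values were seen. The lists were other matrix proteins, collagen processing, other proteases and inhibitors, other epithelial genes, other mesenchymal genes, the TGF-beta pathway and markers of 4 cell types. With 3 arrays against 3, an exact two-sided permutation test cannot go below p = 0.1 and was not used for calls.

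Promoter and miRNA sequences were RefSeq's on GRCh38.p14, and the search was run in Python 3.11.15. No protein motif was searched. The fit was checked on simulated data. Alternatives for the probe sets and genes were the mean of all probe sets, every probe set tested and a minimum mean of 6 or 5. For the fit they were array weights, a robust eBayes with a trend, only the groups compared and a block for the replicate number. Values were also centred by array or quantile normalized again, a fold over 1.5 was required, and each array was left out. Leaving out probe sets with suffix x was chosen after seeing the data. Figures were drawn with matplotlib 3.10.9.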

Additional observations from a re-analysis of the deposited data

Results flagged for a closer look

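The response to erlotinib differed between the pre-miR-371 and GFP vector lines for 5 of the 44 genes by limma's test of the difference itself (pre-miR-371 minus GFP vector, log2). Over all genes 1.44% had a higher difference and 0.561% a lower one. SNAI2 had a difference of 0.548 (adjusted p = 0.00811) and COL6A3 of 0.691 (adjusted p = 0.014), both past the test with each array left out. CDH1 had a difference of 0.32 (adjusted p = 0.0433), lost in 12 of the 12 fits that each left out 1 array. LOXL1 had a difference of -0.502 (adjusted p = 0.0356), lost in 10 of 12, and LOXL4 of -0.588 (adjusted p = 0.0192), lost in 4 of 12. Groups of 3 arrays were not searched for single stray arrays.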

How the results depend on the processing

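Of 81 calls of the 44 genes over the 5 comparisons, 57 held under every alternative fit that included the gene (21 of 25 for erlotinib in the pre-miR-371 line, 25 of 30 in the GFP vector line, 8 of 16 between the lines with erlotinib, 1 of 5 with DMSO and 2 of 5 for the difference of responses), not counting the fold limit. A gene with a mean under 6 or 5 was absent from the fit with that filter. Its calls, such as those of MMP1 and MMP10, were not tested there. With a fold over 1.5, the higher genes numbered 7 in the pre-miR-371 line, 9 in the GFP vector line and 2 between the lines with erlotinib, the lower ones 1 between the lines with erlotinib and 0 with DMSO, and the difference of responses 1 higher and 1 lower. With arrays centred on their medians, 11 genes were higher and 13 lower with erlotinib in the pre-miR-371 line, and 3 differences were higher and 1 lower. Shares over all genes were not taken under the alternatives in this section.

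Between the lines with erlotinib, the mean of all probe sets gave 4 higher genes. With each array left out, the higher genes numbered 5 to 8 and the lower 5 to 10. With DMSO, the higher genes, 0 in the fit reported, were 2 among genes with a mean of at least 6, 1 with at least 5, 4 with quantile normalization repeated, 1 with trend and robust variance, 3 with array weights, 1 without probe sets of suffix x and 0 to 1 with each array left out. The lower genes were 2 with every probe set tested, 1 with only the groups compared, 3 with quantile normalization repeated, 8 with array weights and 1 to 5 with each array left out. For the difference of responses, the higher genes were 5 with a mean of at least 6, of at least 5 and with trend and robust variance. The lower ones were 1 with every probe set tested, 4 with a mean of at least 6, 4 with trend and robust variance, 4 with array weights and 0 to 3 with each array left out.

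With the mean of all probe sets, 3 directions changed: CDH1 with erlotinib in the pre-miR-371 line (-0.0026), THBS1 between the lines with erlotinib (-0.028) and LOXL2 between the lines with DMSO (0.0023). These means take in probe sets near background, averaging 3.94 for CDH1, 2.73 to 3.19 for THBS1 and 3.34 to 4.24 for LOXL2. The cause was not tested. The replicate number as a block gave 14 higher and 11 lower genes with erlotinib in the pre-miR-371 line, 15 and 15 in the GFP vector line, 8 and 9 between the lines with erlotinib, 0 and 5 with DMSO, and 2 and 2 for the difference, where CDH1 was lost. Deviations of same-numbered arrays had r from -0.119 to 0.344 over 18 pairs, with a median of 0.056 and 4 above 0.1. Different-numbered arrays had r from -0.337 to 0.23 over 36 pairs, with a median of -0.017 and 3 above 0.1. Same-numbered arrays were thus slightly more alike, and the upper quartile of values fell from array 1 to array 3 in each group. The labels state no pairing, and the main fit held no block. The difference of responses needs all 4 groups, so only the groups compared could not be run for it. Scaling moved the median of all genes by at most 0.07. Genes near background limit what can be read of ZEB1, ZEB2, SNAI1, TWIST1, CDH2 and 5 of 7 metalloproteinases.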
